A study of Mus musculus with 170 samples.

Results

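The 6 noncoding RNAs described here, Mir17hg, Mir22hg, H19, Meg3, Rian and Mirg, are primary microRNA host transcripts, the long RNAs from which microRNA hairpins are cut. They were chosen by name as rows of the deposited expression table, and all 6 were found among its 40549 rows. Transcripts were measured in single cells of mouse heart ventricles at embryonic day 9.5 by Smart-seq2, which copies full-length RNA from its poly(A) tail. Control embryos, labelled wild type, carried Dgcr8 loxP/loxP and the reporter Rosa26 mT/mG/+ without Cre recombinase. Conditional knockout (cKO) embryos, labelled Mesp1Cre/+; Dgcr8-/-, carried the same floxed Dgcr8 alleles and reporter together with Cre expressed from the Mesp1 locus, which is active in early mesoderm progenitors of the heart. The strain of both groups was C57BL/6. The table held 74 control cells (35 in sequencing batch 1 and 39 in batch 2) and 69 cKO cells (35 and 34). The labels name no embryo, so each genotype was treated as 1 sample, and every difference below describes these cells without a test.

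Dgcr8 binds primary microRNA transcripts and, together with the nuclease Drosha, forms the microprocessor that releases the hairpin from them. Where a hairpin lies in an exon, this cut splits the host RNA itself, whereas a hairpin in an intron can be released from the RNA that splicing removes. Mir17hg carries the miR-17-92 cluster, known for promoting proliferation and for its requirement in heart and lung development. Mir22hg carries miR-22, a microRNA abundant in muscle. H19, Meg3, Rian and Mirg are imprinted RNAs made from the maternal chromosome. H19 neighbours the growth factor gene Igf2, and Meg3, Rian and Mirg follow each other on the same strand in the Dlk1-Dio3 domain.

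In the GENCODE annotation of GRCm38, Mir17hg lies at chr14:115042879-115046727 on the plus strand, and all 6 of its hairpins fall in an exon of its only transcript. Mir22hg lies at chr11:75461539-75466676 on the plus strand, and its hairpin is exonic in both transcripts. H19 occupies chr7:142575529-142578143 on the minus strand, and its hairpin Mir675 is exonic in 3 of the 4 transcripts that span it. Meg3 spans chr12:109541001-109571726 on the plus strand and holds Mir770, which is exonic in 1 of 4 spanning transcripts. The mature sequence of miR-1906 also lies inside Meg3, but its hairpin was not among those placed there. Rian spans chr12:109603940-109661716 on the plus strand, and its hairpins Mir341, Mir1188 and Mir370 are all intronic. Mirg lies at chr12:109729764-109749460 on the plus strand with 14 hairpins, of which 3 are exonic in every spanning transcript, 1 in some, 5 cross an exon edge and 5 are intronic. A further 23 hairpins lie in the 68047 bases between Rian and Mirg.

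The mature microRNAs below were chosen to show products of each of the 6 hosts and which of them share a seed, the stretch (bases 2 to 8, in capitals) that pairs with target RNAs. Sequences are those of RefSeq on GRCm38.p6, 5′ to 3′. The first 6 come from Mir17hg, and the others from Mir22hg, H19, Meg3, Rian and Mirg in that order.
miR-17-5p: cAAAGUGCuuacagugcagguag
miR-20a-5p: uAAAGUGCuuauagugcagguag
miR-18a-5p: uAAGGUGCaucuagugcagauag
miR-19a-3p: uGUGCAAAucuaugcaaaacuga
miR-19b-3p: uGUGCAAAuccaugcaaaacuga
miR-92a-3p: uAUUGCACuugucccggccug
miR-22-3p: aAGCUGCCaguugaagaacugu
miR-675-5p: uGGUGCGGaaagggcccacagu
miR-770-3p: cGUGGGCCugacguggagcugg
miR-370-3p: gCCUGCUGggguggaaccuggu
miR-541-5p: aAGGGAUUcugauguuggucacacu

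Within Mir17hg, miR-17-5p and miR-20a-5p had the same seed, as did miR-19a-3p and miR-19b-3p. Its 11 annotated mature products carried 9 different seeds in all. No seed was shared between mature products of different hosts among the 6. The sequence of miR-541-5p, which the study examined in heart cells, is encoded at chr12:109742422-109742446 in a hairpin that is intronic in all 6 Mirg transcripts that span it.

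Levels are given as TPM, a measure of abundance per unit of transcript length in which each cell is scaled to the same total of 1000000, and as log2(TPM + 1). A host was called detected in a cell at a TPM of at least 1, and each share of cells is followed by its exact (Clopper-Pearson) 95% CI, which takes in counting error alone. Cells were grouped by marker genes into cardiomyocyte-like (CM-like), endothelial-like, epicardial-like and erythroid-like clusters and an unnamed cluster led by mitochondrial transcripts. The CM-like cluster had 94 cells and all 15 cardiomyocyte markers above the other cells. It held 27 of 74 control cells and 67 of 69 cKO cells, so genotypes were compared within it. The named clusters other than CM-like held control cells only, and the epicardial-like cluster also showed 10 of 14 mesenchymal markers.

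Some features of all cells bear on every value. The median number of genes at a TPM above 0, the only measure of sampling that TPM leaves, was 8458 in control and 9845 in cKO CM-like cells of batch 1, and 9704 and 7765 in batch 2. Dgcr8 itself reached a TPM of 1 in 14 of 27 CM-like cells of control and 21 of 67 of cKO embryos, a weak check because values per gene do not resolve a deleted exon. Xist was detected in 64 of 67 cKO CM-like cells and in 0 of 27 control cells (a count that allows up to 11.1%), while the Y-linked Ddx3y reached 1 TPM in 18 of 27 control and 0 of 67 cKO cells (up to 4.48%). Loss of Dgcr8 and this difference in sex-linked transcripts cannot be told apart. Mitochondrial transcripts took a median of 6.30% of TPM in control and 3.00% in cKO CM-like cells, with the same order in both batches. After these rows were left out and TPM rescaled, the differences described below were 3.55 for Mir17hg, 2.97 for Mir22hg, 0.80 for H19, 2.52 for Meg3, −0.46 for Rian and 2.67 for Mirg.

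Of the 6 hosts, 4 were called higher in cKO CM-like cells, namely Mir17hg, Mir22hg, Meg3 and Mirg. H19 was just under the threshold, and Rian had opposite signs in the 2 batches. A gene was called when the mean log2(TPM + 1) differed by at least 1 with the same sign in both batches. Among the 15071 genes with TPM above 0 in more than 10 CM-like cells, 955 (6.34%) were called higher and 931 (6.18%) lower, and all 6 hosts passed that filter. Among the 1291 of these annotated as long noncoding RNA genes, a class chosen after the data were seen, 28 (2.17%) were called higher, the 4 hosts included, and 21 (1.63%) lower. All 6 hosts reached a TPM of 1 in at least 50% of CM-like cells of at least 1 genotype. Among the 6573 genes that did so, the shares were larger, with 784 (11.9%) called higher and 798 (12.1%) lower. The median difference over the 6 hosts was 2.61, with 3.43 in batch 1 and 1.32 in batch 2, and that over all genes was 0.05, with 0.17 and −0.20.

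**Figure D1:**
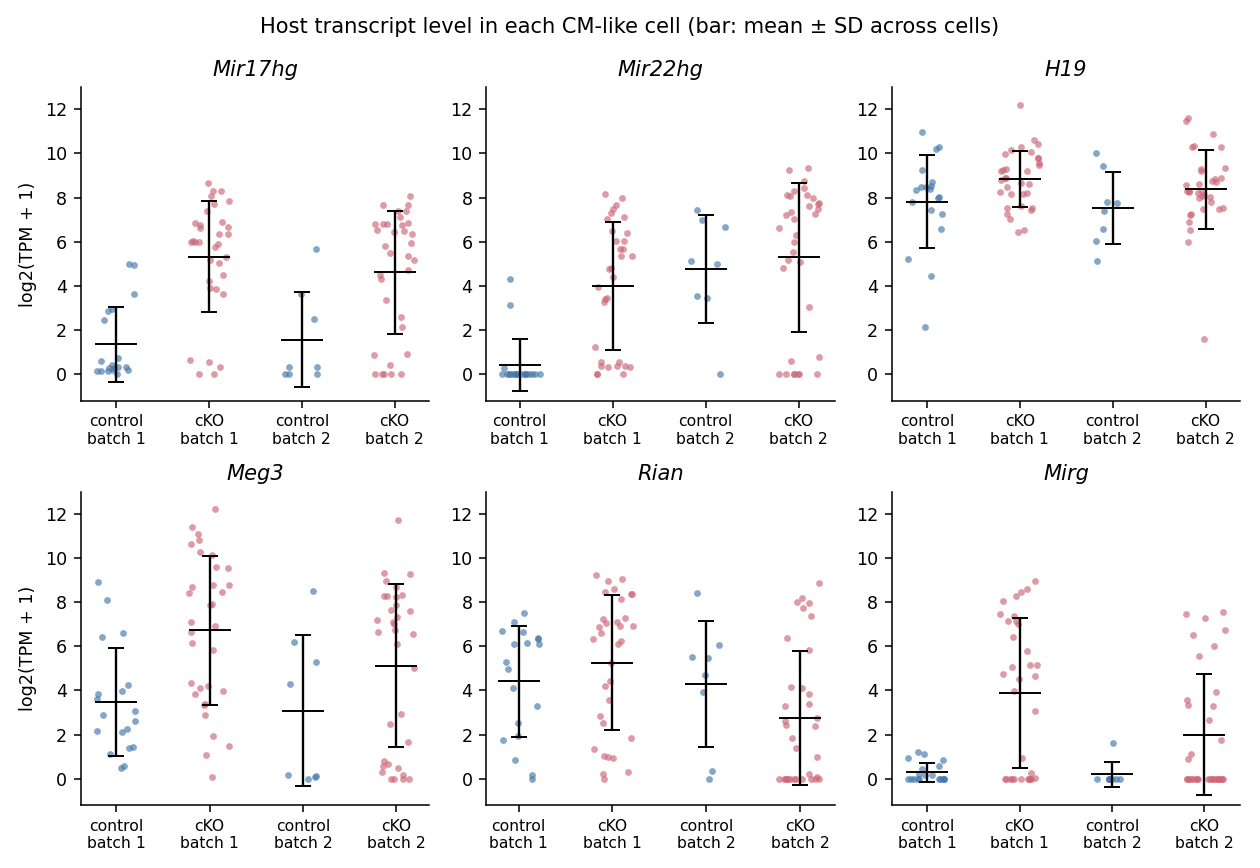
Level of each host transcript, as log2(TPM + 1), in every CM-like cell, separated by genotype and sequencing batch; points are cells and black bars are the mean ± SD across cells. Mir17hg and Mirg sat near 0 in most control cells of both batches and spread upwards in cKO cells, whereas Mir22hg was near 0 mainly in control cells of batch 1.

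Mir17hg had the largest difference of the 6. Its TPM in control CM-like cells ranged from 0 to 50.7 with a median of 0.25, and in cKO CM-like cells from 0 to 405 with a median of 60.9. Most cKO cells were thus above the highest control cell, 37 of 67 or 55.2% (95% CI 42.6 to 67.4), although the ranges overlapped at the low end. The mean log2(TPM + 1) was 1.41 ± 1.81 (SD across cells, n = 27) in control and 4.96 ± 2.67 (n = 67) in cKO, a difference of 3.55 that exceeded 99.9% of the genes compared. Within batches it was 3.98 and 3.06.

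Low values of Mir17hg were common in control cells. It was at a TPM above 0 in 23 of 27 control CM-like cells (18 of 19 in batch 1 and 5 of 8 in batch 2) and 60 of 67 cKO ones, but reached a TPM of 1 in 9 of the former, 33.3% (95% CI 16.5 to 53.96), against 54 of the latter, 80.6% (95% CI 69.1 to 89.2). Both the level and the share of cells at this TPM thus differed. Among detected cells alone, the median TPM of Mir17hg was 11.3 in control and 80.4 in cKO.

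Mir22hg was called higher, but its control level depended on the batch. In control CM-like cells of batch 1 its TPM ranged from 0 to 18.7 with a median of 0, and it was detected in 2 of 19. In the 8 control CM-like cells of batch 2 it ranged from 0 to 171 with a median of 32.4 and was detected in 7. The cKO cells showed it in 23 of 33 cells of batch 1 (median TPM 26.1) and 25 of 34 of batch 2 (median 115).

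On the log2(TPM + 1) scale Mir22hg averaged 1.70 ± 2.59 in control and 4.66 ± 3.19 in cKO CM-like cells, a difference of 2.96. It was 3.60 in batch 1 and 0.52 in batch 2, the latter below the threshold for a call. Weighting the batches equally gave 2.06. The share of cells with Mir22hg in batch 2 was 87.5% in control (95% CI 47.3 to 99.7) and 73.5% in cKO (95% CI 55.6 to 87.1), so no excess of cKO cells was seen there. The gap between batches was present in control cells of other classes too. Over all control cells, detection of Mir22hg was 11.4% in batch 1 (4 of 35, 95% CI 3.20 to 26.7) and 79.5% in batch 2 (31 of 39, 95% CI 63.5 to 90.7). The source of this gap was not tested.

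**Figure D2:**
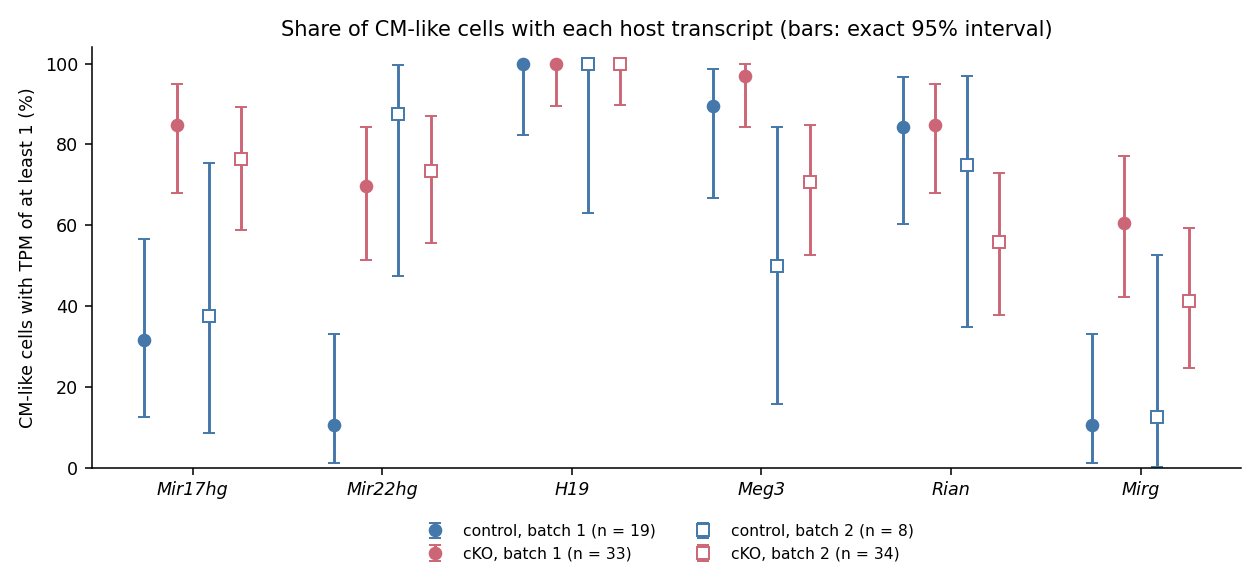
Percentage of CM-like cells with a TPM of at least 1 for each host transcript, by genotype and batch, with exact 95% intervals as bars. The intervals of control and cKO cells do not meet for Mir17hg, Mir22hg and Mirg in batch 1, and they overlap for every host in batch 2.

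H19 was present in every CM-like cell of either genotype. Its TPM ranged from 3.36 to 1993 (median 255) in control and from 2.03 to 4751 (median 392) in cKO CM-like cells. The 2 ranges coincided over most of their length, and 3 of 67 cKO cells were above the highest control cell. The mean log2(TPM + 1) was 7.73 ± 1.94 in control and 8.60 ± 1.56 in cKO, a difference of 0.88, with 1.03 in batch 1 and 0.85 in batch 2. This fell short of the scatter among cells within each genotype and of the threshold, and lay above 90.8% of the genes compared. The protein-coding neighbour Igf2, which encodes an insulin-like growth factor, differed by a like amount, 0.91, with 0.72 and 0.99 in the 2 batches.

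The pooled level of H19 depended on which cells were compared. Over all cells of each genotype the mean was 8.82 in control and 8.48 in cKO, a difference of −0.35. These control cells included the endothelial-like and epicardial-like classes, whose levels are given below. In the 41 CM-like cells with the fewest endothelial and erythroid markers (25 cKO and 16 control), the difference of H19 was 1.47, past the threshold. In that set 1730 of 11551 genes (15%) were called higher.

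Meg3, the most upstream of the 3 hosts in its domain, had the widest spread. In control CM-like cells its TPM ranged from 0 to 482 with a median of 6.36, and in cKO CM-like cells from 0 to 4819 with a median of 121. The highest control cell was exceeded by 13 of the 67 cKO cells, 19.4% (95% CI 10.8 to 30.9). The mean log2(TPM + 1) was 3.35 ± 2.70 in control and 5.91 ± 3.60 in cKO, a difference of 2.56, with 3.27 in batch 1 and 2.03 in batch 2. It exceeded 99.6% of the genes compared, yet each genotype's own SD was larger. The share of cells with Meg3 was alike, 77.8% in control (95% CI 57.7 to 91.4) and 83.6% in cKO (95% CI 72.5 to 91.5), whereas the median TPM among detected cells was 13.4 and 178.

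Rian, which lies downstream of Meg3 and is also known for the small nucleolar RNAs in its introns, was not called. Its TPM ranged from 0 to 346 (median 38.3) in control and from 0 to 608 (median 10.8) in cKO CM-like cells. Its mean log2(TPM + 1) was 4.38 ± 2.56 in control and 3.99 ± 3.28 in cKO, a difference of −0.40. In batch 1 Rian was higher in cKO cells by 0.84, and in batch 2 it was lower, at −1.54.

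Control cells gave means of Rian of 4.42 and 4.31 in the 2 batches, whereas those of cKO cells were 5.25 and 2.76. Detection followed the same course, with 28 of 33 cKO cells in batch 1 and 19 of 34 in batch 2, against 16 of 19 and 6 of 8 control cells. The cKO cells of batch 2 also had the fewest genes above 0, and the part of this in the result was not tested. On the mean TPM itself, the ratio of cKO to control was 1.72, opposite in direction to the difference of mean log2 values. Rian exceeded 100 TPM in 21 of 67 cKO and 4 of 27 control CM-like cells, and it was under a TPM of 1 in 20 and 5 of them.

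Mirg, the last of the 3 in its domain, had low values in control CM-like cells. Its highest TPM there was 2.07 and its median 0, whereas cKO CM-like cells ranged from 0 to 494 with a median of 1.18. As many as 33 of the 67 cKO cells exceeded the highest control cell, 49.3% (95% CI 36.8 to 61.8). Detection of Mirg was 11.1% in control (3 of 27, 95% CI 2.35 to 29.2) against 50.7% in cKO (34 of 67, 95% CI 38.2 to 63.2). At a TPM above 0 it was found in 10 of 27 control and 38 of 67 cKO cells, a smaller gap. Averaged over cells, log2(TPM + 1) was 0.27 ± 0.47 in control and 2.93 ± 3.20 in cKO, a difference of 2.65, with 3.59 in batch 1 and 1.79 in batch 2.

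Mirg was under a TPM of 1 in 33 cKO cells, about as many as those that had it. Among the detected cells the median TPM was 59.2, with 106 in batch 1 and 30.1 in batch 2. In the 3 control cells with Mirg it was 1.32. Because control cells were near 0, the ratio of mean TPM, 0.28 in control and 56.4 in cKO, depended on very low values and is not given as a fold.

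**Figure D3:**
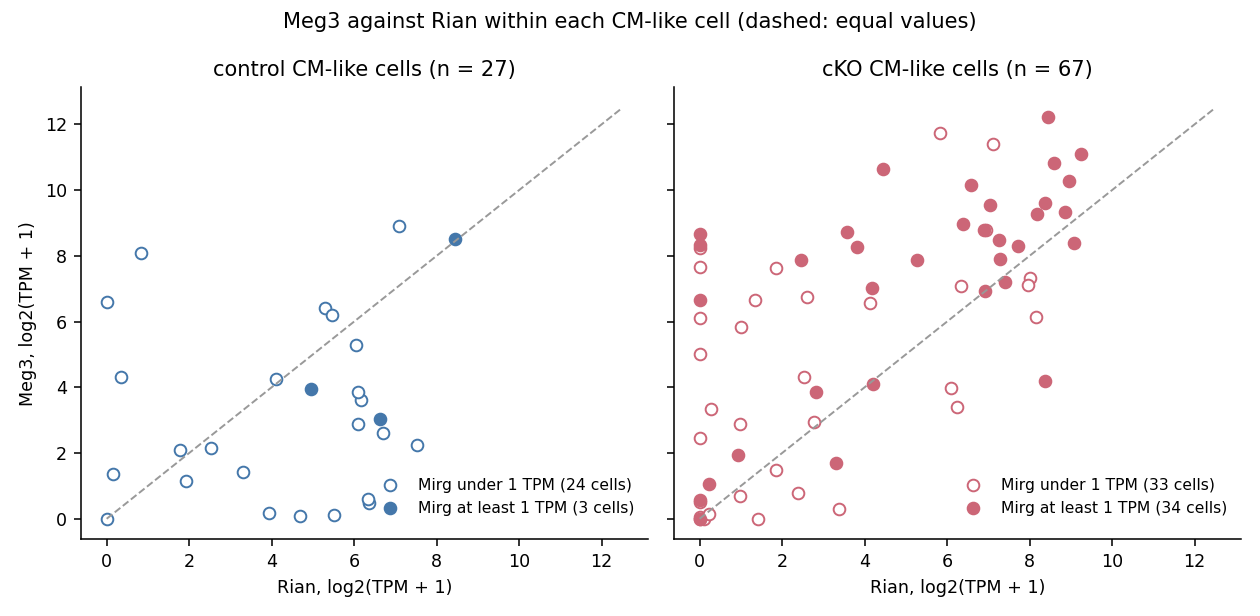
Meg3 plotted against Rian, both as log2(TPM + 1), in each control (left) and cKO (right) CM-like cell, with filled points for cells in which Mirg reached a TPM of 1 and the dashed line at equal values. Control cells lay mostly below the line, with 10 of 27 above it, and cKO cells mostly above it, with 48 of 67; of the 34 filled cKO points, 32 also had a Meg3 TPM of at least 1.

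The 3 hosts of the Dlk1-Dio3 domain were compared within each cell, where the cell's total divides out except for the pseudocount. Meg3 minus Rian on the log2(TPM + 1) scale averaged −1.03 ± 3.44 in control and 1.92 ± 2.92 in cKO CM-like cells. In batch 1 the means were −0.95 and 1.48, and in batch 2 they were −1.22 and 2.36. Meg3 was thus above Rian in 10 of 27 control and 48 of 67 cKO cells. Mirg minus Rian averaged −4.11 ± 2.47 in control and −1.06 ± 3.44 in cKO, again with the same order in both batches. Mirg minus Meg3 averaged −3.08 ± 2.61 in control and −2.99 ± 3.55 in cKO. Both differences with Mirg rest on the pseudocount, since Mirg was at or near 0 in control cells. Rian was detected in 47 of 67 cKO CM-like cells, so the pseudocount also bears on the differences from Rian. For each host alone, rather than for these within-cell differences, log2(TPM + 0.1) was also used. The cKO minus control difference was then 2.78 for Meg3, −0.79 for Rian and 3.67 for Mirg.

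Across the 67 cKO CM-like cells, Spearman's rho was 0.64 for Meg3 and Rian, 0.51 for Meg3 and Mirg and 0.46 for Rian and Mirg. These correlations are descriptions across cells that share batch and sampling. Within batches they were 0.74 and 0.44 for Meg3 and Rian, 0.48 and 0.50 for Meg3 and Mirg, and 0.46 and 0.27 for Rian and Mirg. Across the 27 control cells the same pairs gave 0.18, 0.25 and 0.12, with only 3 cells in which Mirg was detected. By batch, Meg3 and Rian gave −0.02 and 0.67 in control cells, the latter above the cKO value of batch 2. Meg3 and Mirg gave 0.17 and 0.58, and Rian and Mirg −0.12 and 0.58. Batch 2 had only 8 control cells, and Mirg was detected in 1 of them. The other pairs of hosts in cKO cells had pooled values between −0.20 and 0.20. Within batches, however, Mir22hg and Rian reached 0.44 and 0.23, about as high as Rian and Mirg, and Mir22hg and Meg3 gave 0.32 and −0.06.

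Among genes detected in at least 50% of CM-like cells of a genotype, those whose pattern across cells was most like each host were ranked by Spearman's rho. In cKO cells, where 5751 genes were compared, Rian and Mirg were the closest to Meg3, and Meg3 was the closest to both Rian and Mirg. Spry2, which encodes an inhibitor of receptor tyrosine kinase signalling, was among the 3 closest genes of Rian (0.54) and of Mirg (0.49). For H19 the closest gene in control cells was Igf2 (0.68), which in cKO cells (0.44) came after Nxn (0.51) and Srebf2 (0.46). For Mir22hg the closest genes in cKO cells were Rasl11b (0.58) and Ctgf (0.55), the latter encoding a secreted matrix-associated protein. For Mir17hg they were Usp14 (0.54), a deubiquitinase of the proteasome, and Nt5c3b (0.54). With 27 control cells and at least 5807 genes compared, the highest correlation was between 0.56 and 0.78 for each host. Apart from Igf2, none of the 3 closest genes was the same in both genotypes. Mir17hg, Mir22hg and Mirg were detected in under 50% of control CM-like cells, so none of them could be ranked as a closest gene there.

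**Figure D4:**
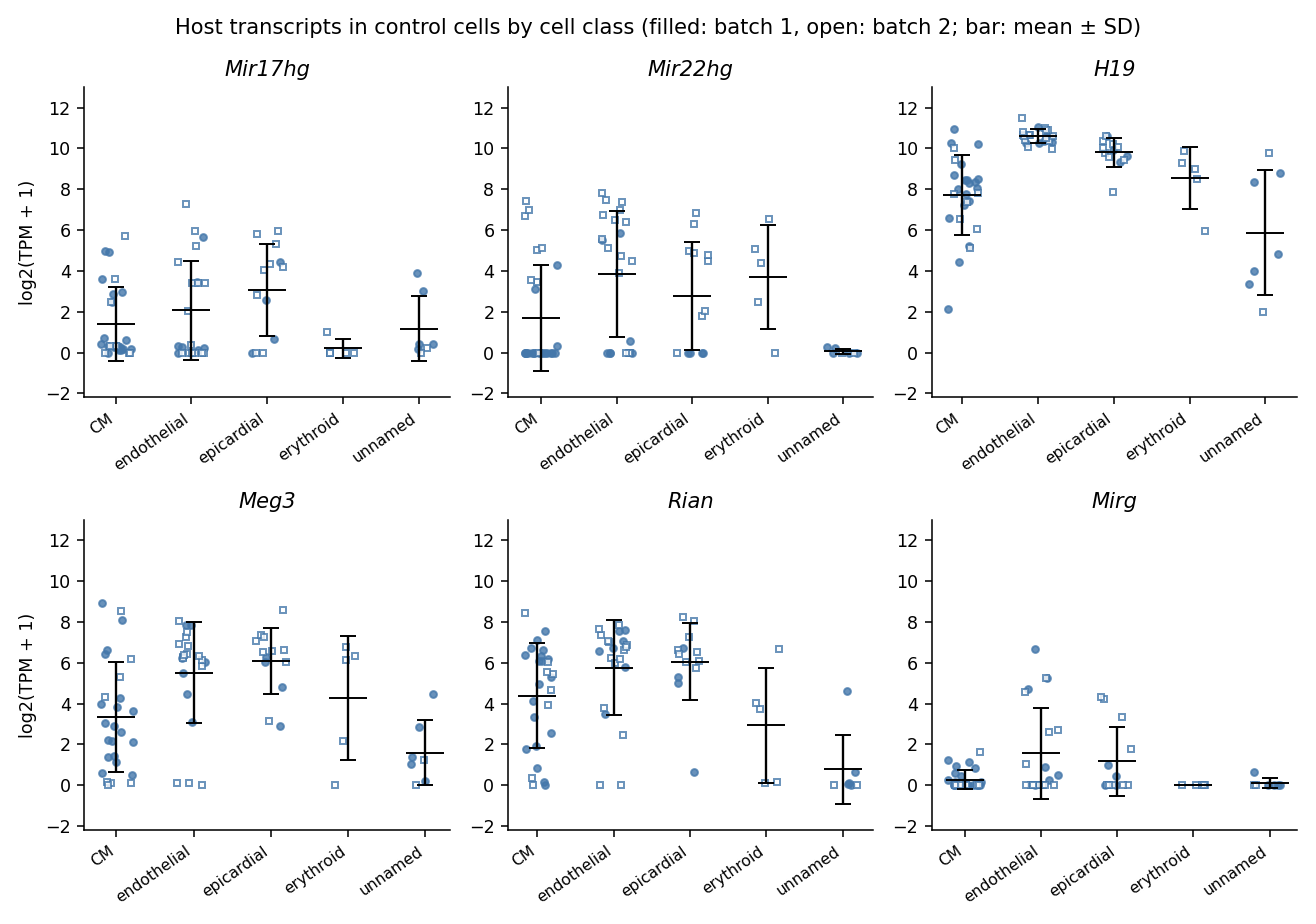
Host transcripts as log2(TPM + 1) in each control cell by cell class, with filled circles for batch 1, open squares for batch 2 and black bars for the mean ± SD across cells. The CM-like mean was below the endothelial-like mean for every host, and Mir22hg separated the batches within classes, so that its pooled means depend on the batches from which each class came.

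In control embryos the mean of each of the 6 hosts was lower in the 27 CM-like than in the 22 endothelial-like cells, pooled and within each batch. Against the 13 epicardial-like cells, the CM-like mean was lower in both batches for Mir17hg, H19, Meg3 and Mirg. For Rian it was lower in batch 2 (4.31 against 6.77) but not in batch 1 (4.42 against 4.41), and for Mir22hg it was higher in both. For Mir17hg the mean log2(TPM + 1) was 3.09 ± 2.25 in epicardial-like, 2.07 ± 2.44 in endothelial-like, 1.41 ± 1.81 in CM-like, 1.17 ± 1.60 in unnamed and 0.20 ± 0.45 in the 5 erythroid-like cells. None of these neighbours in the order differed by more than the larger of their SDs.

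The pooled order for Mir22hg was endothelial-like (3.86 ± 3.09), erythroid-like (3.70 ± 2.53), epicardial-like (2.77 ± 2.66), CM-like (1.70 ± 2.59) and unnamed cells (0.07 ± 0.12). All 5 erythroid-like cells were of batch 2, where Mir22hg was high in every named class. In batch 2 alone the means were 4.87 in endothelial-like, 4.77 in CM-like, 4.00 in epicardial-like and 3.70 in erythroid-like cells. In batch 1 the 7 endothelial-like cells averaged 1.70, the 19 CM-like cells 0.41, and the 4 epicardial-like cells were listed at 0. The pooled order of epicardial-like above CM-like cells was therefore reversed within both batches. Batch 2 supplied 9 of the 13 epicardial-like cells but 8 of the 27 CM-like cells.

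H19 was the most evenly expressed host in endothelial-like cells, at 10.59 ± 0.35, followed by epicardial-like (9.80 ± 0.72), erythroid-like (8.53 ± 1.52), CM-like (7.73 ± 1.94) and unnamed cells (5.87 ± 3.05). The step from endothelial-like to epicardial-like cells, 0.79, was the only one between neighbouring classes of any host that exceeded the larger SD. Igf2 was likewise highest in endothelial-like cells (11.30 ± 0.48) and lower in epicardial-like (10.21 ± 0.45) and CM-like cells (9.02 ± 1.30). The cKO CM-like mean of H19 stayed 1.99 below that of control endothelial-like cells.

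In pooled means the 3 hosts of the Dlk1-Dio3 domain shared the same upper classes. Meg3 was at 6.09 ± 1.62 in epicardial-like, 5.52 ± 2.47 in endothelial-like, 4.28 ± 3.02 in erythroid-like, 3.35 ± 2.70 in CM-like and 1.60 ± 1.57 in unnamed cells. For Rian the values were 6.04 ± 1.88 in epicardial-like, 5.75 ± 2.33 in endothelial-like, 4.38 ± 2.56 in CM-like, 2.93 ± 2.81 in erythroid-like and 0.77 ± 1.70 in unnamed cells. Mirg was low throughout, at 1.56 ± 2.23 in endothelial-like, 1.16 ± 1.69 in epicardial-like, 0.27 ± 0.47 in CM-like and 0.09 ± 0.24 in unnamed cells, and it was listed at 0 in all erythroid-like cells. It was detected in 8 of 22 endothelial-like and 4 of 13 epicardial-like cells. The order of these 2 classes depended on the batch. In batch 1 the epicardial-like means were 5.00 for Meg3, 4.41 for Rian and 0.36 for Mirg. There the endothelial-like means were 5.86, 6.40 and 2.61, and the CM-like means 3.46, 4.42 and 0.30. In batch 2 the epicardial-like means (6.57, 6.77 and 1.52) were above the endothelial-like ones (5.36, 5.45 and 1.08).

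The cKO CM-like cells were also set against these control classes. Their pooled mean of Meg3, 5.91, lay 0.39 above that of control endothelial-like cells and differed from that of epicardial-like cells by −0.18. Both differences changed sign between batches. In batch 1 the cKO CM-like mean of Meg3 was 6.73, against 5.86 in endothelial-like and 5.00 in epicardial-like cells. In batch 2 it was 5.12, against 5.36 and 6.57. The cKO CM-like means of Mir17hg (4.96) and Mirg (2.93) exceeded those of every control class. The excess was 1.87 over epicardial-like cells for Mir17hg and 1.36 over endothelial-like cells for Mirg, each less than the SD of either group. In batch 2 the mean of Mirg was 1.99 in cKO CM-like and 1.52 in control epicardial-like cells. Mir22hg exceeded the endothelial-like mean by 0.79, also less than the SD of either group.

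Markers of the other classes were examined in the CM-like cells compared. None of the 13 endothelial, 6 epicardial or 7 erythroid markers was called in either direction, and of the 14 mesenchymal markers 2 were called higher in cKO, Vim and Fn1. The cells had been clustered on these same markers, so low values of them in CM-like cells were partly set beforehand. Among all genes compared, 6.34% were called higher and 6.18% lower. The summed TPM of the endothelial markers ranged from 1.82 to 267 (median 13.2) in control and from 2.76 to 439 (median 55.7) in cKO cells. That of the mesenchymal markers ranged from 4.27 to 784 (median 167) and from 67.3 to 2339 (median 481), with Postn listed at 0 in every cKO cell. The epicardial sums ranged from 0.31 to 533 and from 0 to 454, and the erythroid sums from 0 to 357 and from 0 to 816. In the 41 cells with the fewest endothelial and erythroid markers, Mir17hg differed by 2.93, Mir22hg by 4.16, Meg3 by 2.73 and Mirg by 2.89, and all 4 remained called. Among these cells 1730 of 11551 genes (15%) were called higher, against 6.34% in the main comparison.

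The number of hosts found in the same cell differed between genotypes mainly in batch 1. The median CM-like cell had 3 of the 6 hosts at a TPM of at least 1 in control and 5 in cKO, with 3 and 5 in batch 1 and 4 and 4 in batch 2. All 6 were found together in 20 of 67 cKO cells and in 0 of 27 control cells, a count that allows up to 11.1%. At least 4 were found in 11 of 27 cells in control and in 52 of 67 in cKO. By batch, these were 6 of 19 and 29 of 33 in batch 1, and 5 of 8 and 23 of 34 in batch 2.

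Other hosts of microRNAs were examined from lists of names. Of 12 further noncoding hosts, 8 were in the table and 7 passed the filter. Among these, Ftx alone was called higher, at 1.62 (1.76 in batch 1 and 1.48 in batch 2), none was called lower, and the median difference was 0.41. Ftx lies beside Xist on the X chromosome and takes part in its regulation, and both were higher in the cKO mean. Dleu2, the host of the miR-15a and miR-16 cluster, differed by 0.81 with opposite signs in the batches (1.29 and −0.21).

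Among 33 protein-coding genes with a microRNA in an intron, 31 passed the filter, of which 4 (Lpp, Copz2, R3hdm1 and Ppargc1b) were called higher and 1 (Tln2) lower. Lpp, an actin-associated adhesion protein and the host of miR-28, differed by 2.48, with 2.11 and 3.18 in the batches. Copz2, a coatomer subunit and the host of miR-152, differed by 1.84. R3hdm1 differed by 1.61 and Ppargc1b, a coactivator of mitochondrial genes, by 1.16. Tln2, a talin that links integrins to actin, was at −1.63. The cardiac myosin genes Myh6 and Myh7, hosts of miR-208a and miR-208b, differed by 0.22 and 0.46 and were not called. The median over the 31 was 0.33, with 0.70 in batch 1 and −0.10 in batch 2. These counts stand beside shares of 6.34% called higher and 6.18% called lower among all genes compared.

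**Figure D5:**
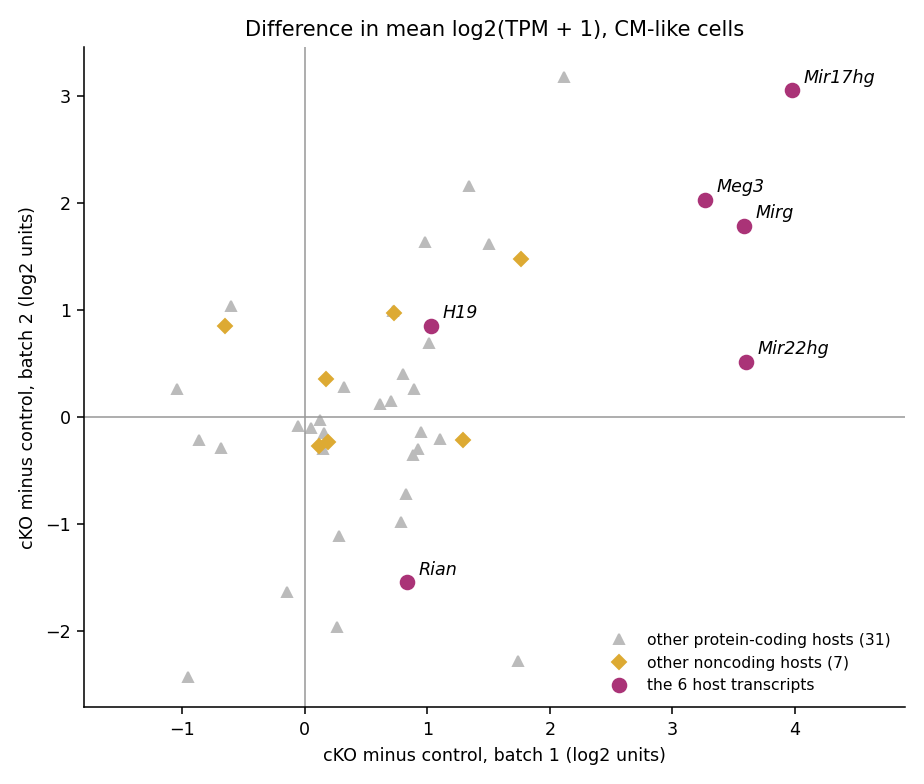
Difference in mean log2(TPM + 1) between cKO and control CM-like cells in batch 1 (horizontal axis) and batch 2 (vertical axis) for the 6 hosts (circles), 7 other noncoding hosts (diamonds) and 31 protein-coding hosts (triangles). Mir17hg, Meg3 and Mirg lie far from 0 on both axes, Mir22hg on the horizontal axis only, and Rian has opposite signs.

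The protein-coding genes of the imprinted domains were also examined. Dlk1, a paternally expressed Notch-like ligand upstream of Meg3, averaged 0.71 in CM-like cells of control and 1.03 in those of cKO embryos, with differences of 1.19 in batch 1 and −0.90 in batch 2. Rtl1, a retrotransposon-derived gene expressed from the paternal chromosome, was at 0.24 and 0.45. Dio3 and Ins2 were listed at 0 in all CM-like cells, and Begain was above 0 in 1 of them. None of the 3 neighbours that passed the filter (Dlk1, Rtl1 and Igf2) was called.

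Rows named for the hairpins themselves held few values. The 6 hairpin rows of Mir17hg and the row of Mir675 were at 0 in every cell, while any of the 21 hairpin rows of the cluster within and upstream of Mirg was above 0 in 17 of 69 cKO and 5 of 74 control cells, led by Mir376b with 10 and 2 cells.

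By position of the hairpins, the hosts called higher included Mir17hg and Mir22hg, with all hairpins exonic. The others were Meg3, with its placed hairpin Mir770 exonic in some transcripts, and Mirg, with exonic, intronic and edge-crossing hairpins. H19, also with a hairpin exonic in some transcripts, was not called, nor was Rian, the only one of the 6 whose hairpins were all intronic. With 6 hosts and a single one of the last kind, no comparison between these positions was made.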

How the data were processed

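Single cells of mouse heart ventricles were picked by hand after digestion with trypsin and collagenase, and the Smart-seq2 libraries were sequenced in 2 batches. The authors quantified them with Salmon against mm10 and deposited TPM, which sums to between 996133 and 999999 per cell and keeps no depth. The version of Salmon and the annotation release were not given in the sources used here. The authors kept cells that mapped well and removed cells whose reporter went against their genotype. Reads carry no molecular identifiers. Titles matched 143 of 170 labelled samples to a column, all columns differed, and the other 27 samples were not analysed here.

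Cells were clustered by Ward linkage on z-scored log2(TPM + 1) of 55 markers into 5 clusters. Clusters were named from markers at least 1 log2 unit higher than in other cells, by the class with most of its list so raised, given 3 or more of them and no other class ahead among the top 10 genes. No doublet caller was run, since cells were picked singly. The host transcripts, gene lists, markers and alternatives were chosen with earlier results of these data known. The rule for named genes was the 6 hosts in full, other hosts only where called, and imprinted neighbours with values. Myh6, Myh7, Dleu2, Vim and Fn1 are named outside it, after their values were seen. For a count of 0, the upper limit was set at 3 cells. Hairpins were placed on GENCODE vM21 transcripts (GRCm38, the same assembly as mm10). The difference and its call were tested on simulated data. Python 3.11.15, pandas 2.3.3 and SciPy 1.17.1 were used.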

Additional observations from a re-analysis of the deposited data

How the results depend on the processing

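Each host's difference was recomputed under 14 alternatives. Mir17hg (2.02 to 4.60), Meg3 (1.43 to 3.27) and Mirg (1.39 to 7.59) were called higher under all 14, and Mir22hg (0.52 to 4.41) under 13, the exception being batch 2 alone (0.52). The value of 7.59 for Mirg is the log2 ratio of mean TPM, where the control mean was near 0. H19 passed the threshold in batch 1 alone (1.03), with 4 clusters (1.13) and in cells with few endothelial and erythroid markers (1.47), and it had the opposite sign over all cells (−0.35). Rian was called lower in batch 2 alone (−1.54) and was above 0 in batch 1 (0.84), with 4 clusters (0.23) and as a ratio of mean TPM (0.78). With TPM above 0 in place of a TPM of at least 1, the share of CM-like cells with Mir17hg was 85.2% in control and 89.6% in cKO. The number of genes called higher, 955, became 1608 with log2(TPM + 0.1), 285 with log2(TPM + 10), 3479 with the ratio of mean TPM, 1938 in batch 1 alone, 1814 with 4 clusters and 1730 in cells with few endothelial and erythroid markers. The number called lower, 931, became 1806 and 214 with those pseudocounts, 567 in batch 1 alone, 3282 in batch 2 alone, 347 with 4 clusters and 1443 with clusters from the most variable genes. The causes of these shifts were not tested. No paired analysis was possible because each numbered title is 1 cell, so numbers do not link samples, and nothing here comes from a test. Each genotype is 1 sample, so no replicate could be left out. Depth per cell is unknown, and batch 2 held only 8 control CM-like cells.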

Other observations

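The unnamed cluster, led by mitochondrial transcripts, held 2 cKO and 7 control cells that entered only the comparison over all cells. The mean log2(TPM + 1) of H19 was 4.31 in the 2 cKO cells and 5.87 in the 7 control cells, that of Meg3 was 2.15 and 1.60, and that of Mirg was 1.31 and 0.09. Rian was listed at 0 in both cKO cells.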
